A study of Mus musculus with 12 samples.

Results

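The nuclear-encoded genes of the respiratory chain and ATP synthase were described in mouse bone marrow stroma. Members were all symbols in the 12 count tables that begin with Nduf, Uqcr, Cox4 to Cox8 or Atp5, together with Sdha, Sdhb, Sdhc and Sdhd. Names ending in -ps were left out. This gave 92 of 24062 genes, of which 89 had enough counts to be tested and 3 did not (Cox8b, Cox8c and Ndufs5). By complex, the members were 7 core subunits, 29 accessory subunits and 7 assembly factors of complex I, 4 subunits of complex II, 8 of complex III, 20 of complex IV and 17 of complex V. Ndufa4 and Ndufa4l2 were counted with complex IV, where their products are now placed. The rule leaves out the catalytic cytochrome c1 gene (Cyc1), and the genes of the mitochondrial genome were not analysed here.

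All 4 groups were C57BL/6J cells, with 3 libraries each. GFPneg and GFPpos were sorted fresh from marrow as cells without CD45, Ter119 and CD31, and were negative or positive for a green fluorescent reporter of Scf, the stem cell factor gene Kitl. Neither carried a transduced gene. The control and rMSC groups were grown from reporter-positive stroma in alpha-MEM with 20% serum, 10 ng/ml basic FGF, antibiotics and L-glutamine. Control stroma carried a control vector, and rMSC (revitalized mesenchymal stromal cells) carried Klf7, Ostf1, Xbp1, Irf3 and Irf7 together. RNA of 1000 to 5000 sorted cells per library was amplified by SMART-Seq v4 and read as 150-base single ends. Whether the 3 libraries of a group are separate animals or separate dishes is not stated, so the spread behind each p-value may be technical. Levels are given in CPM (counts scaled to a common library size with edgeR's TMM factors), and a member was called where its edgeR adjusted p over all 15163 genes tested was under 0.05. Fold changes are log2 values with a standard error (SE). The SE was derived from the fold change and the F statistic of its test, with the spread shared by all 4 groups.

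Libraries held 60507051 to 85353566 counts, and the 5 transduced genes were each higher in every rMSC library than in every control library (Irf3 at 481.6 ± 3.2 against 20.4 ± 0.731 CPM). Reporter-positive cells held Kitl at 330, 292 and 479 CPM, while GFPneg held 1.60, 0 and 0. Perivascular stromal markers (10 genes) summed to 31690 to 47690 CPM in GFPpos, 8264 to 8396 in control, 2828 to 2877 in rMSC and 0.322 to 46.2 in GFPneg. The GFPneg libraries thus nearly lack defining markers of stroma although their label calls them bone marrow stromal cells. Of the 10 markers, 3 were called higher and 4 lower in rMSC than in control, where 24.5% and 25.5% of all genes were. Cxcl12 stood at 5636 ± 118 CPM in control and 1217 ± 15.1 in rMSC. Kitl went the other way, from 33.8 ± 4.41 to 249.7 ± 11.8 CPM, as did Lepr, from 0.28 ± 0.104 to 17.7 ± 1.33. Erythroid markers (12 genes), despite the sort against Ter119, summed to 7746 to 8211 CPM in GFPneg and 1282 to 2293 in GFPpos, with 33.0 to 38.5 (control) and 38.4 to 42.1 (rMSC) in the cultures. Megakaryocyte markers (10 genes) stood at 245 CPM in GFPpos replicate 1 and 3774 and 3188 in replicates 2 and 3.

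Complexes I to IV pass electrons from NADH or succinate to oxygen and, except for complex II, pump protons across the inner mitochondrial membrane. Complex V, the ATP synthase, lets the protons flow back and makes ATP. Most subunits are encoded in the nucleus, and several subunits of complexes IV and V exist as paralogs that are used in certain tissues or at low oxygen. In marrow, quiescent stem cells are known for low reliance on respiration, while red cell precursors carry many mitochondria until late in their maturation.

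Promoter sequence from RefSeq (GRCm38.p6, 250 bases before to 50 after the start) was found for 76 of the 92 members. Motifs of factors known to bind such promoters were searched on both strands. TATA box, low-oxygen, interferon regulatory factor and XBP1 motifs were searched as well. The NRF1 motif, GCGC then NN then GCGC, was in 27.6% of the 76 members and 7.0% of 27025 genes with a promoter, the ETS motif CCGGAAG in 22.4% and 9.9%, and the YY1 motif AAGATGGC in 14.5% and 3.2%. The TATA box TATAAA was in 9.2% of the members and 15.7% of all genes. SP1's GGGCGG was in 44.7% and 38.2%, CCAAT in 44.7% and 41.1% and the ERR motif TCAAGGTCA in 2.6% and 0.5%. The low-oxygen motif GACGTG was in 10.5% and 7.2%, the interferon regulatory factor motif, GAAA then NN then GAAA, in 2.6% and 4.0%, and the XBP1 motif TGACGTG, which contains the low-oxygen motif, in 1.3% and 2.2%. These are matches of letters and not shown to be bound. The shares over all genes take in genes whether or not they were expressed in these cells. The NRF1 motif was in 5 of 19 members called higher in rMSC than in control, 5 of 15 called lower and 10 of 40 not called.

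Promoters are shown for members that the results turn on. They are Ndufaf4 (chr4:24897833-24898132 on the plus strand), Uqcr11 (chr10:80406772-80407071 on the minus strand), Ndufs7 (chr10:80249199-80249498 on the plus strand), and the pair Cox6b1 (chr7:30626065-30626364 on the minus strand) and Cox6b2 (chr7:4753045-4753344 on the minus strand), whose levels went apart in culture. Cox7b2 (chr5:71548156-71548455 on the minus strand) had counts in rMSC alone. Capitals mark matches of the NRF1 motif in Ndufaf4, the ETS motif in Uqcr11 and Cox6b1 and the YY1 motif in Ndufs7. Cox6b2 and Cox7b2 had no match of these 3 motifs in this window.
Ndufaf4: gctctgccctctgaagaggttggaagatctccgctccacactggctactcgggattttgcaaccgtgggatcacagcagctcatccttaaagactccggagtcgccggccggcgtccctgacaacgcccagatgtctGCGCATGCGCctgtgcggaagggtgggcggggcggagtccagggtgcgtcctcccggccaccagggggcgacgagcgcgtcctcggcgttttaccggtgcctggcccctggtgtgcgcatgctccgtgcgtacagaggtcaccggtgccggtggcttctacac
Uqcr11: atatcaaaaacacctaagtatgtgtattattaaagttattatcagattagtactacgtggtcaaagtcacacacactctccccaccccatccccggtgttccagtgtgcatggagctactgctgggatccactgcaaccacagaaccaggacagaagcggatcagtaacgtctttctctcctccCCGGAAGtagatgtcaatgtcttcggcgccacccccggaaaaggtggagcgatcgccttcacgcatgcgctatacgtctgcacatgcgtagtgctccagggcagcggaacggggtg
Ndufs7: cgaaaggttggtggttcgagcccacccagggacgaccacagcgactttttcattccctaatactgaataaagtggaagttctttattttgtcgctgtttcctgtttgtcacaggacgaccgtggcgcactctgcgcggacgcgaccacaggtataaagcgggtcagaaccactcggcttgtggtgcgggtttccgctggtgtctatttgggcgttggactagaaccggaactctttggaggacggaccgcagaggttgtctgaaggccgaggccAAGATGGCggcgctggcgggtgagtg
Cox6b1: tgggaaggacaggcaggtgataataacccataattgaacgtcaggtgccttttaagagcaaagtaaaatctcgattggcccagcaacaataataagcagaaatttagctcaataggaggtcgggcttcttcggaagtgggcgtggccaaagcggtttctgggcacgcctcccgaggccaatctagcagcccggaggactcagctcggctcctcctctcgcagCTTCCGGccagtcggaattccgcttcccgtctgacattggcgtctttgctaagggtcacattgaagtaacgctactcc
Cox6b2: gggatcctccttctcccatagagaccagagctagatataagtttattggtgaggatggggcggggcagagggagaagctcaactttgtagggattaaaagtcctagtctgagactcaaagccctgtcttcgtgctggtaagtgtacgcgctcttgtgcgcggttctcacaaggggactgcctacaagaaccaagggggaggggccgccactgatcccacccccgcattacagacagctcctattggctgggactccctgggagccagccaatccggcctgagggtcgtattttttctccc
Cox7b2: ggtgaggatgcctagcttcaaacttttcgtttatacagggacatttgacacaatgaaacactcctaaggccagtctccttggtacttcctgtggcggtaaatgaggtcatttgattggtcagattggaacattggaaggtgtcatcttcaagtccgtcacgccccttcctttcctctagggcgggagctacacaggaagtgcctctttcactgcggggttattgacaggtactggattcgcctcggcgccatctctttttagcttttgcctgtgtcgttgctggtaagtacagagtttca

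Respiratory chain transcripts fell stepwise from GFPneg over GFPpos to the cultures. The 92 members summed to 23337, 24177 and 23517 CPM in GFPneg, 14217, 13937 and 13869 in GFPpos, 8988, 9142 and 8879 in control and 9571, 9803 and 9932 in rMSC. No library of one group overlapped another group. The sum in GFPneg was 1.69 times that in GFPpos, that in GFPpos 1.56 times that in control, and that in rMSC 1.09 times that in control. As a share of the counts as deposited, the members took 2.58% ± 0.0346 in GFPneg and 1.27% ± 0.0707 in GFPpos, against 0.910% ± 0.0141 in control and 0.975% ± 0.0161 in rMSC (SD, n = 3). In these bulk samples, fewer cells of a type and less RNA per cell cannot be told apart.

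**Figure D1:**
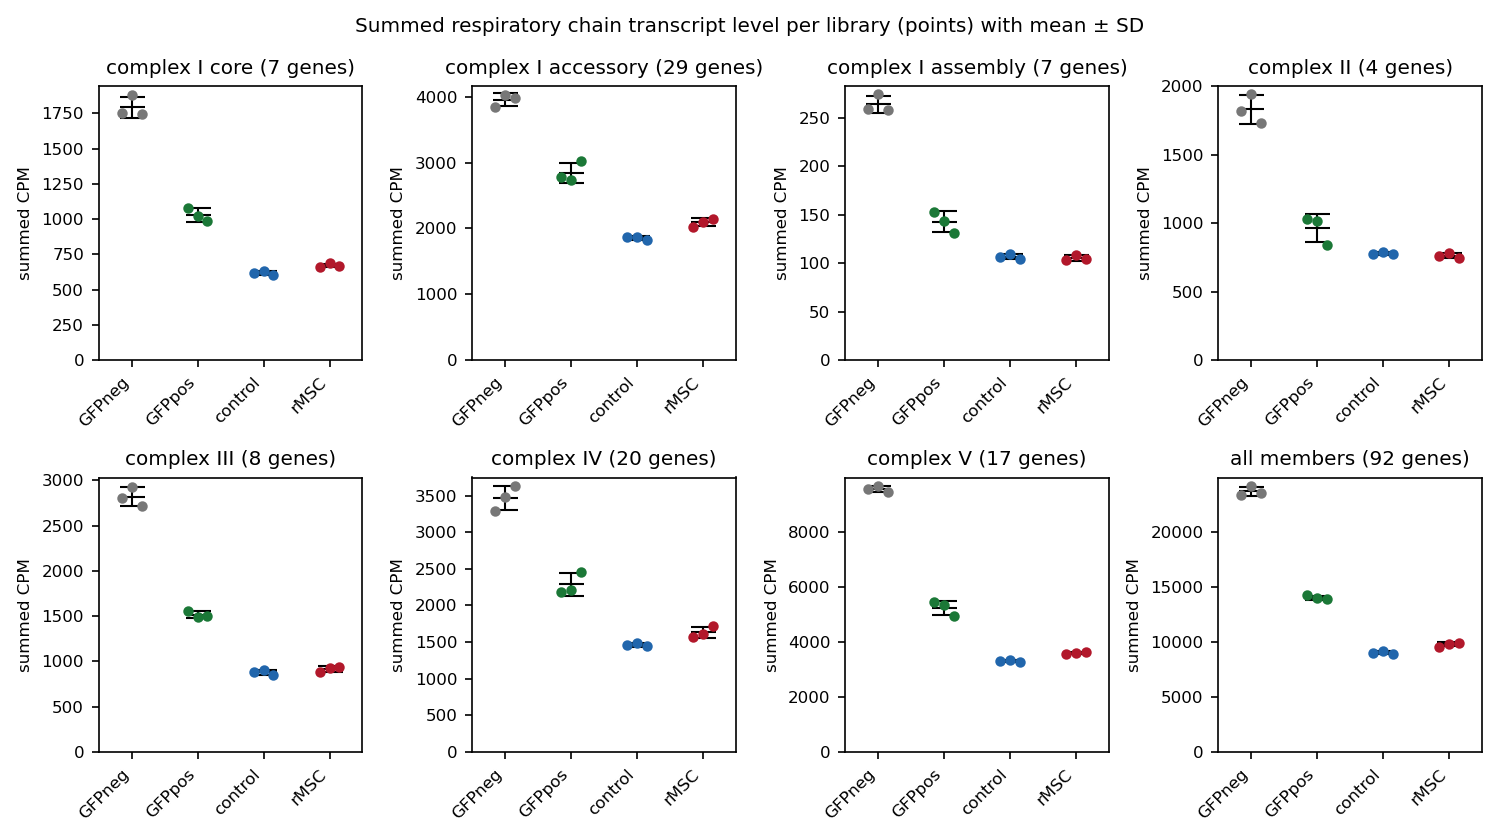
Summed CPM of the members by complex in each of the 12 libraries. Points are libraries, and black bars give the mean ± SD of the 3 libraries of a group. The sum of all members falls from 23677 ± 442 CPM in GFPneg to 14008 ± 184 in GFPpos and 9003 ± 132 in control, with rMSC at 9769 ± 183.

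The order of group means was alike for most members. In 42 members it ran from GFPneg over GFPpos and rMSC to control, and in 27 the cultures changed places. GFPneg had the highest mean in 74 members, GFPpos in 5, control in 2 and rMSC in 8. The lowest mean was in control for 50 members and in rMSC for 30. Within a group the libraries lay close together: the median coefficient of variation of members over 5 CPM was 4.29, 7.44, 2.67 and 4.24% in GFPneg, GFPpos, control and rMSC, respectively. The mean profile of the members over the 12 libraries correlated with single members at a median Pearson r of 0.945, and 64 of 89 members were over 0.9, against 15.2% of all genes. The profile is the mean of these same members, which raises their correlation with it. The libraries also share group and depth, so this is a description only. Ndufv3 ran against the profile with r = -0.91. The genes outside the member rule with the most similar profile were Ampd3 (r = 0.9975), 2700094K13Rik (0.9972) and Sac3d1 (0.997). Ampd3, which encodes the AMP deaminase of red cells, stood at 203.6 ± 5.81 CPM in GFPneg and 91.8 ± 6.61 in GFPpos, and in the cultures at 25.6 ± 2.45 (control) and 35.1 ± 0.586 (rMSC).

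Divided by exon length, transcripts of complex III were the most abundant in GFPneg, with a median over its 8 members of 361 CPM per kb. Complex II followed at 285, complex V at 266, complex IV at 196.9, the complex I core at 151, its accessory subunits at 123 and its assembly factors at 20.9. The complex IV median takes in paralogs at or near 0, such as Cox6a2 (0) and Cox7a1 (0.353 CPM per kb). Its place in the order depends on counting them. In control the same medians were 141 for complex III, 111 for complex II, 122 for complex V, 85.3 for complex IV, 55.3 for the core, 63.6 for the accessory subunits and 9.44 for the assembly factors. Atp5b was the most abundant member per length in every group, at 2027, 957, 637 and 781 CPM per kb in GFPneg, GFPpos, control and rMSC, respectively. Lengths are merged exons of coding transcripts, which include long untranslated ends for Atp5g1 and Ndufab1 and so understate these members. Merged exons are long for other members as well, such as Ndufb2 and Sdhc, so the order of the complexes is approximate.

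The comparison of GFPpos with GFPneg asked how reporter-positive stroma differs from the reporter-negative cells of the same sort. Of 89 members, 69 were lower in GFPpos and 5 were higher, where 36.5% of all genes tested were called lower, 40.5% higher and 77.0% in either direction. The median log2 fold change was -0.59 for members and 0.08 for all genes. All 7 core subunits of complex I, all 4 of complex II and all 8 of complex III were lower, as were 14 of 17 in complex V and 11 of 18 in complex IV. The 3 libraries of each group did not overlap in 71 of the 74 called members (95.9%), near the 94.0% of all called genes. The 5 higher include Cox4i2, which passed the filter on low counts through GFPpos alone. Erythroid markers were at 1282 to 2293 CPM in GFPpos and 7746 to 8211 in GFPneg, and all 12 were called lower. Cell cycle genes (20 of 20 lower) were at 2345 to 4718 and 13210 to 14410 CPM. Megakaryocyte, perivascular and osteoblast markers went the other way, with 10 of 10 called higher in each list. Of the granulocyte markers 2 of 10 were higher and 0 lower, and of the pan-haematopoietic 2 of 9 were higher and 2 lower. The part of these lists in the fall of the members was not tested. Without replicate 1 of both fresh groups, a setting chosen after seeing the data, 65 members were lower and 6 higher, where 11488 of all genes were called.

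Levels were lower again in the control culture. In control against GFPpos, 78 of 89 members were lower and 5 higher, where 35.9% of all genes were called lower, 32.5% higher and 68.3% in either direction. The median log2 fold change was -0.63 for members and -0.04 for all genes, and none of the 83 called members overlapped between the groups, as held for 95.7% of all called genes. The 78 lower include Cox4i2, which passed the filter on low counts through GFPpos alone. All 7 core subunits of complex I and all 8 of complex III were lower, with 26 of 28 accessory subunits and 16 of 17 members of complex V. Complex II changed least by its sum, from 964 ± 104 CPM in GFPpos to 781 ± 10.9 in control, while complex III went from 1515 ± 38.8 to 879 ± 25.3. Erythroid markers were at 33.0 to 38.5 CPM and cell cycle genes at 296 to 314 CPM in control, with 12 of 12 and 20 of 20 called lower than in GFPpos. The granulocyte sum (10 genes) was 852.4 to 4137 CPM in GFPpos and 7.87 to 8.71 in control, and the pan-haematopoietic sum (9 genes) 209.9 to 508 and 15.1 to 16.5. The megakaryocyte sum was 245 to 3774 and 42.8 to 46.2 CPM, and the osteoblast sum (10 genes) 136000 to 200400 and 28430 to 29330. The part of these marker sums in the difference was not tested. The comparison shares the GFPpos libraries with the one above.

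Between rMSC and control, members differed in both directions. In rMSC against control, 27 of 89 members were higher and 16 lower, where 24.5% of all genes were called higher, 25.5% lower and 50.1% in either direction. The 48.3% of members called is near that background, and the median log2 fold change was 0.08 for members and -0.01 for all genes. Differences were small: of the 85 members at 5 CPM or more in at least 1 group, 6 were called higher and 1 lower by over 1.5-fold. All genes were not counted at that limit. By over 2-fold, 2 of the 89 tested members were called higher and 2 lower, against 1784 and 1898 of 15163 genes. The quartiles of the log2 fold change were -0.13 and 0.27 for members and -0.59 and 0.52 for all genes. No called member overlapped between the groups, as held for 99.4% of all called genes. The 27 higher include Cox7b2, which passed the filter on low counts through rMSC alone. Erythroid markers (38.4 to 42.1 CPM in rMSC, 33.0 to 38.5 in control) and cell cycle genes (284 to 343 and 296 to 314 CPM) were low in both cultures.

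Members stayed below the fresh reporter-positive level in rMSC. Against GFPpos, 66 of 89 were lower and 11 higher, where 38.2% of all genes were called lower, 33.4% higher and 71.6% in either direction. The median log2 fold change was -0.62 for members and -0.08 for all genes. The 11 higher include Cox7b2, which passed the filter on low counts through rMSC alone. The 66 lower include Cox4i2, which passed it through GFPpos alone. Erythroid and cell cycle sums differed between these groups as given above, with 11 of 12 and 20 of 20 markers lower in rMSC. Granulocyte (10 of 10), megakaryocyte (10 of 10), pan-haematopoietic (9 of 9), osteoblast (9 of 10) and perivascular (6 of 10) markers were also called lower. The part of these lists was not tested. The comparison shares libraries with those of control with GFPpos and of rMSC with control.

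**Figure D2:**
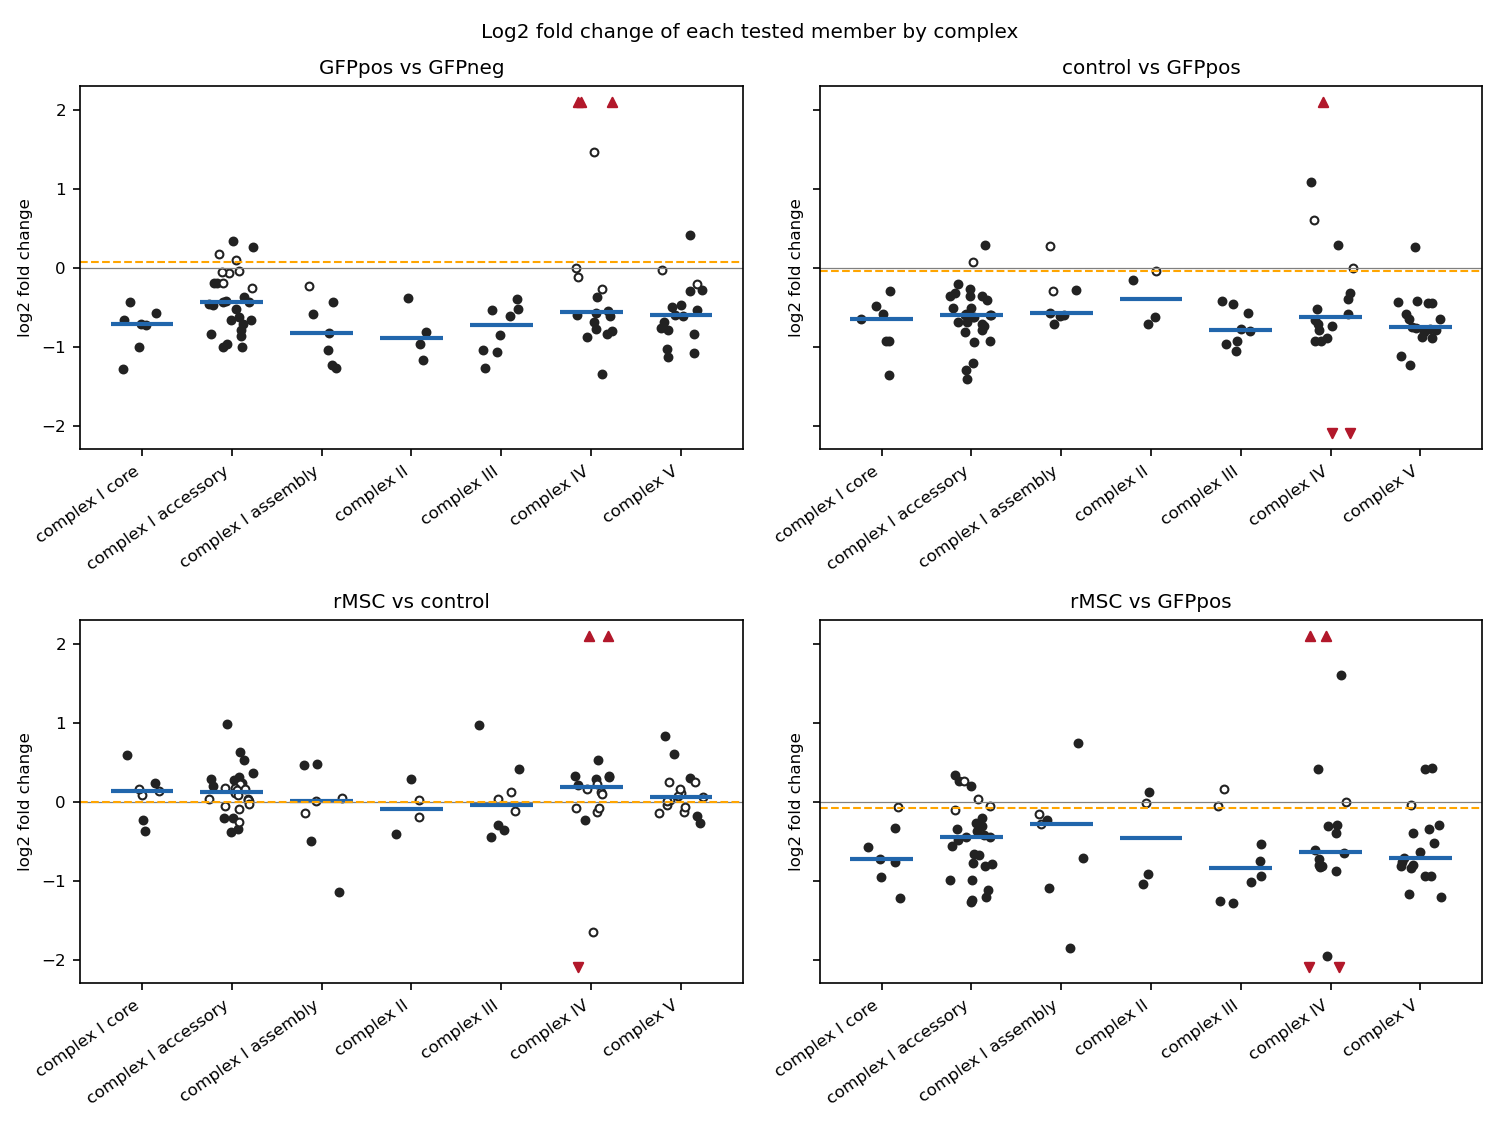
Log2 fold change of each tested member by complex in the 4 comparisons. Filled points were called, open points were not, red triangles lie outside ±2, blue bars are class medians and the orange dashed line is the median of all genes tested. In rMSC against control the median over all members is 0.08, and in the other comparisons it is -0.59 to -0.63.

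Complex I takes electrons from NADH. Its entry point is Ndufv1, which holds the flavin. Ndufv1 stood at 421, 430.3 and 398 CPM in GFPneg, 243, 206 and 173 in GFPpos, 81.5, 81.9 and 80 in control and 88.6, 89.8 and 87.8 in rMSC. The groups did not overlap, and the cultures held less than any fresh library. It was lower in control than in GFPpos by the most of the core (log2 fold change -1.35 ± 0.10, edgeR adjusted p = 8.32e-07), and its difference between rMSC and control did not pass the test (0.13 ± 0.10, edgeR adjusted p = 0.314). Ndufs1, the largest subunit and carrier of iron-sulfur clusters, stood at 296, 332 and 291 CPM in GFPneg, 143, 128 and 107 in GFPpos, 80.3, 77.8 and 82 in control and 86.2, 88.3 and 79.7 in rMSC. GFPneg was above GFPpos and GFPpos above the cultures, which overlapped. Ndufs1 was the core subunit with the largest fall in GFPpos against GFPneg (-1.28 ± 0.10, edgeR adjusted p = 6.17e-07).

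Ndufs7, which lies by the quinone site, was higher in rMSC than in control, and the core subunits Ndufv2 and Ndufs3 were lower. Ndufs7 (chr10:80249121-80256794, GRCm38) stood at 246, 266 and 256 CPM in GFPneg, 152, 156 and 156 in GFPpos, 80.5, 83.3 and 80 in control and 120.0, 123 and 126 in rMSC. The rMSC libraries lay between control and GFPpos without overlap (0.60 ± 0.05, edgeR adjusted p = 4.71e-06 against control; -0.33 ± 0.05, edgeR adjusted p = 0.000163 against GFPpos). Ndufv2, a partner of Ndufv1, went the other way, from 110.2, 116 and 105 CPM in control to 83.7, 87.1 and 85.1 in rMSC (-0.37 ± 0.06, edgeR adjusted p = 0.00024). Ndufs3 moved likewise from 57.8 ± 0.489 to 49.2 ± 0.264 CPM (-0.23 ± 0.07, edgeR adjusted p = 0.012).

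Among the accessory subunits, which surround the core, 9 of 28 were higher and 4 lower in rMSC than in control, where 24.5% of all genes were higher and 25.5% lower. The 46.4% called is near the 50.1% of all genes. Ndufb9 (chr15:58933756-58939488), at the far end of the membrane arm, had the largest rise of all members above 5 CPM. It stood at 402, 407 and 392 CPM in GFPneg, 226, 215 and 221 in GFPpos, 115, 117 and 111 in control and 220.0, 225 and 235 in rMSC. In rMSC the level was close to that in GFPpos, with overlapping libraries, while control lay below both. The log2 fold change was 0.98 ± 0.05, edgeR adjusted p = 2.04e-07 against control and 0.04 ± 0.05, edgeR adjusted p = 0.533 against GFPpos. Of its exon bases, 28.6% also lie in the annotated gene Gm49356, so reads of both may be mixed or lost. Ndufa6, a LYR-motif subunit, stood at 49.6, 47.8 and 48.5 CPM in control and 73.4, 72.8 and 79.7 in rMSC (0.63 ± 0.12, edgeR adjusted p = 0.00131). Ndufa12 rose from 43.4 ± 0.737 to 62.4 ± 2.78 CPM (0.52 ± 0.06, edgeR adjusted p = 3.31e-05). Ndufb3 and Ndufb8 fell, Ndufb3 from 35.9 ± 1.004 to 27.5 ± 1.82 CPM (-0.38 ± 0.09, edgeR adjusted p = 0.00342) and Ndufb8 from 99.7 ± 1.94 to 78.4 ± 3.32 CPM (-0.35 ± 0.06, edgeR adjusted p = 0.000747).

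In the other steps most accessory subunits fell. Ndufab1, which is also the mitochondrial acyl carrier protein, had the largest fall of the accessory subunits from GFPneg to GFPpos, from 147, 149 and 142 to 70.8, 74 and 73 CPM (-1.01 ± 0.05, edgeR adjusted p = 1.90e-08). Ndufb2 showed the largest fall from GFPpos to control, from 99.7, 109 and 139 to 43.9, 43.6 and 43.6 CPM (-1.41 ± 0.11, edgeR adjusted p = 9.95e-07). Ndufb10 and Ndufb7, both of the distal membrane arm, fell in the same step by 1.30 and 1.21 on the log2 scale. The libraries of these 4 genes did not overlap in the step named.

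A few accessory subunits did not follow the fall. Ndufv3, a small subunit beside Ndufv1, stood at 50.6, 56.4 and 60.1 CPM in GFPneg, 57.1, 62.3 and 68.8 in GFPpos, 75, 77 and 77.6 in control and 73.4, 75.4 and 75.9 in rMSC. The cultures were above all GFPpos libraries, and GFPneg overlapped GFPpos. It was higher in control than in GFPpos (0.29 ± 0.08, edgeR adjusted p = 0.00811), the reverse of its neighbours Ndufv1 and Ndufv2. Ndufa13, also known as the cell death regulator GRIM-19, stood at 101, 107 and 113 CPM in GFPneg and 121, 129 and 156 in GFPpos, where it was called higher (0.34 ± 0.09, edgeR adjusted p = 0.00539; not called with library totals alone). Of its 150-base windows 20.5% are shared with Tssk6. Ndufb11 was also higher in GFPpos (115 ± 11.2 against 96.6 ± 3.44 CPM, 0.26 ± 0.07, edgeR adjusted p = 0.00727), but with library totals alone its log2 fold change was -0.01. Ndufa7 passed no test between GFPneg (105 CPM), GFPpos (101) and control (105), taken in that order, and was higher in rMSC than in control (127; 0.27 ± 0.09, edgeR adjusted p = 0.0352). That call was lost when any 1 control or rMSC library was left out, with an adjusted p of up to 0.122. Ndufs5 was listed at 0 or 1 counts in every library, and BC002163, which shares 7.6% of its windows, at 189 to 410 counts; the cause was not tested.

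The Ndufaf genes encode assembly factors, which help build complex I and are not part of it. Ndufaf4 (chr4:24898083-24905001), which acts with Ndufaf3 on the quinone module, had the largest fall of all members above 5 CPM in rMSC against control. It stood at 61.3, 66.3 and 60.9 CPM in GFPneg, 28.8, 28.6 and 22.6 in GFPpos, 16.7, 16.6 and 15.5 in control and 7.48, 7.35 and 7.22 in rMSC. Each group lay apart from the others. The rMSC level was 45.2% of control (-1.15 ± 0.10, edgeR adjusted p = 5.00e-06) and lower still against GFPpos (-1.86 ± 0.10, edgeR adjusted p = 5.31e-08). Ndufaf3 itself went the other way, from 15.6, 14.6 and 14.8 CPM in control to 19.5, 22.3 and 20.4 in rMSC (0.47 ± 0.08, edgeR adjusted p = 0.000792). Ndufaf5, which modifies an arginine of Ndufs7, stood at 8.57, 9.87 and 9.37 CPM in GFPneg, 7.63, 6.64 and 9.47 in GFPpos, 9.5, 9.74 and 9.45 in control and 13.1, 14.2 and 12.6 in rMSC. Its rMSC libraries were above all others, and the other 3 groups overlapped (0.47 ± 0.14, edgeR adjusted p = 0.0176 against control). That call was lost without control replicate 1 or 3 or rMSC replicate 2, with an adjusted p of up to 0.0693. Ndufaf6 fell from 6.39 ± 0.503 CPM to 4.52 ± 0.254 (-0.50 ± 0.13, edgeR adjusted p = 0.00994). In the fresh cells Ndufaf6 and Ndufaf4 had the largest falls of the class from GFPneg to GFPpos (-1.27 ± 0.13 and -1.24 ± 0.10).

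Complex II, succinate dehydrogenase, links the citric acid cycle to the chain. Sdha, the flavoprotein, stood at 815, 871 and 761 CPM in GFPneg, 447, 451 and 356 in GFPpos, 401, 409 and 406 in control and 408, 431 and 395 in rMSC. GFPneg held about 1.95 times the GFPpos mean (-0.97 ± 0.10, edgeR adjusted p = 4.25e-06), and the other 3 groups overlapped. Sdha was the member of complex II that passed no test between GFPpos, control and rMSC (-0.04 ± 0.10, edgeR adjusted p = 0.705 for control against GFPpos). The iron-sulfur subunit Sdhb fell at each step, with 312, 349.8 and 329.7 CPM in GFPneg, 199.9, 189 and 176 in GFPpos, 121, 125 and 119.7 in control and 90.8, 92.1 and 91.7 in rMSC. None of the groups overlapped, and the last step was -0.41 ± 0.06, edgeR adjusted p = 0.000351. Of the membrane anchors, Sdhc rose in rMSC from 113 ± 2.06 to 137 ± 1.81 CPM (0.29 ± 0.05, edgeR adjusted p = 0.000497), and Sdhd stood at 141 ± 3.59 and 123 ± 2.17 CPM (-0.20 ± 0.11, edgeR adjusted p = 0.167). In GFPpos against GFPneg the falls were -1.17 ± 0.11 for Sdhd, -0.81 ± 0.06 for Sdhb and -0.38 ± 0.05 for Sdhc. The call of Sdhc was lost in an edgeR fit of these groups alone (adjusted p = 0.102).

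Complex III passes electrons to cytochrome c. The core protein Uqcrc1 stood at 1072, 1114 and 984 CPM in GFPneg, 573, 496 and 441 in GFPpos, 259, 265 and 250.3 in control and 204, 215 and 214 in rMSC. All 4 groups lay apart. It fell to 47.6% of GFPneg in GFPpos (-1.07 ± 0.10, edgeR adjusted p = 1.67e-06) and to 51.3% of GFPpos in control (-0.96 ± 0.10, edgeR adjusted p = 6.71e-06). Uqcrfs1, the Rieske iron-sulfur protein, had the largest fall of the complex from GFPneg (332, 356 and 310.2 CPM) to GFPpos (151, 142 and 121 CPM; -1.27 ± 0.08, edgeR adjusted p = 1.48e-07). It fell again in control (72.7 CPM) and in rMSC (56.8 CPM; -0.35 ± 0.08, edgeR adjusted p = 0.00444 for the last step). The catalytic partner Cyc1, outside the member rule, stood at 583 ± 49.4 CPM in GFPneg and 258 ± 36.8 in GFPpos, against 95.9 ± 3.5 in control and 103 ± 3.1 in rMSC.

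The small subunits of complex III parted in rMSC. Uqcr11 (chr10:80402997-80406830), the smallest, stood at 358, 383 and 352 CPM in GFPneg, 179, 167 and 185 in GFPpos, 106, 104 and 94.6 in control and 189.9, 206 and 199.6 in rMSC. The rMSC libraries were all above control and all just above GFPpos. The log2 fold change was 0.97 ± 0.07, edgeR adjusted p = 1.18e-06 against control and 0.16 ± 0.07, edgeR adjusted p = 0.052 against GFPpos; the latter, just short of the threshold, passed it in 8 other settings. Uqcrq also rose, from 80.1, 79 and 78 to 99.4, 105 and 111 CPM (0.41 ± 0.07, edgeR adjusted p = 0.000391). Uqcrh, the hinge protein that holds cytochrome c1, fell from 79.3, 81.8 and 78.6 to 56.3, 56.6 and 63.5 CPM (-0.44 ± 0.08, edgeR adjusted p = 0.000727). Uqcr10 fell most of the complex from GFPpos to control (-1.06 ± 0.08, edgeR adjusted p = 6.23e-07) and did not pass the test between the cultures (0.12 ± 0.08, edgeR adjusted p = 0.223).

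**Figure D3:**
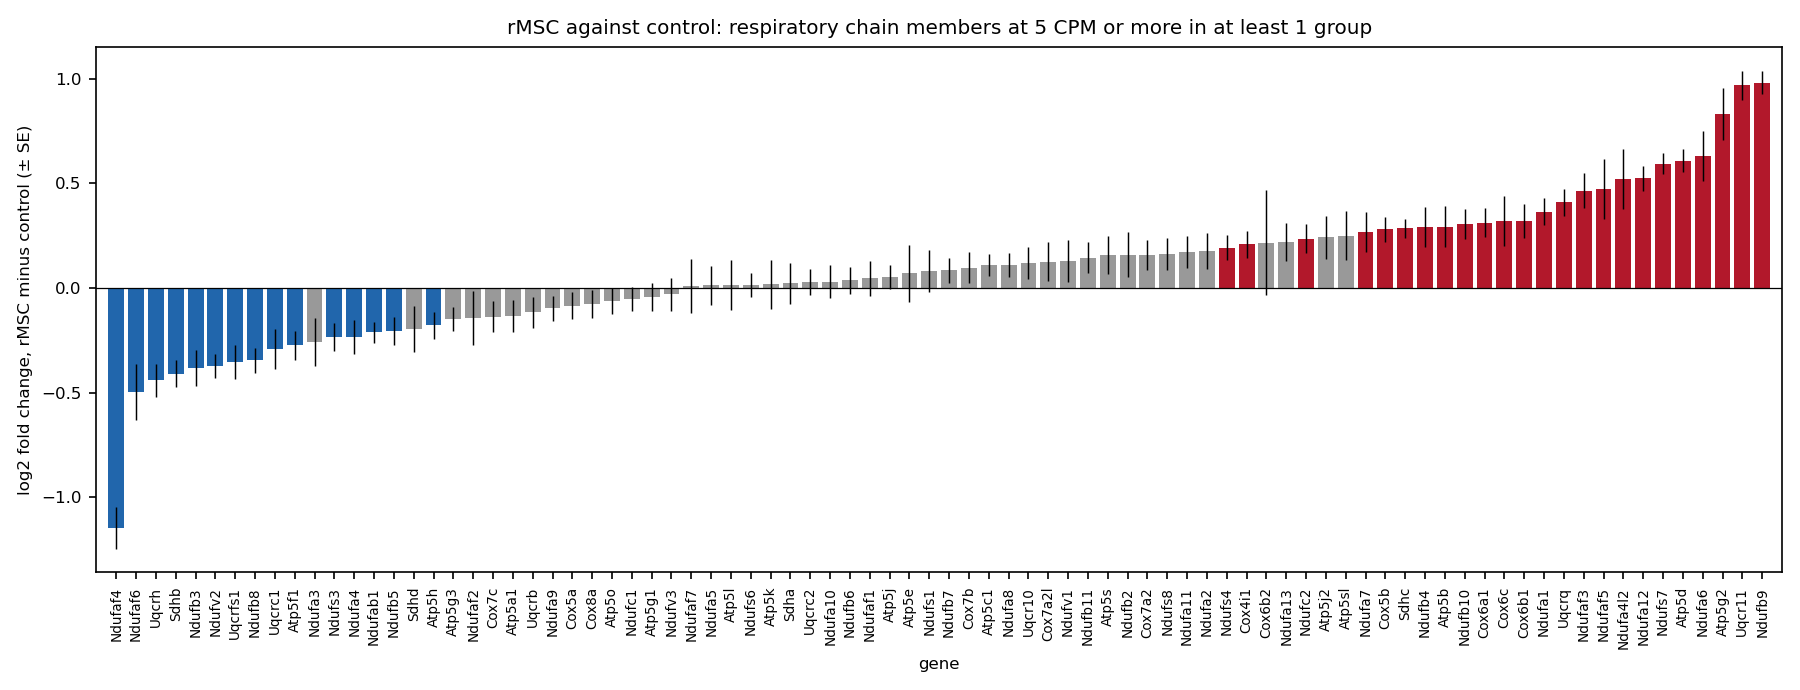
Log2 fold change of rMSC over control for 84 of the 85 members at 5 CPM or more in at least 1 group, in ascending order, with SE. Red bars were called higher, blue bars lower and grey bars were not called. Ndufaf4 at -1.15 and Ndufb9 at 0.98 lie at the ends.

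Complex IV, cytochrome c oxidase, reduces oxygen. Of its 18 tested members, 8 were higher and 2 lower in rMSC than in control, where 24.5% of all genes were higher and 25.5% lower. The 8 include Cox7b2, which passed the filter on low counts through rMSC alone. Of these 10 calls, those of Cox4i1, Cox6c, Ndufa4, Ndufa4l2 and Cox7a1 were lost when 1 library was left out. The common subunit Cox4i1 stood at 491, 524 and 535 CPM in GFPneg, 354, 347 and 354 in GFPpos, 247, 248 and 239 in control and 266, 283 and 299.6 in rMSC. The groups did not overlap, with rMSC between control and GFPpos (0.21 ± 0.06, edgeR adjusted p = 0.0196 against control). That call was lost without control replicate 1, 2 or 3 or rMSC replicate 2 or 3, with an adjusted p of up to 0.0932. Cox5b (77 ± 3.62 to 93.6 ± 1.57 CPM, 0.28 ± 0.06, edgeR adjusted p = 0.00269), Cox6a1 (175 ± 2.2 to 218 ± 8.05 CPM, 0.31 ± 0.07, edgeR adjusted p = 0.00339) and Cox6b1 (144 ± 4.45 to 180.3 ± 9.9 CPM, 0.32 ± 0.08, edgeR adjusted p = 0.00705) rose too. Cox5a (-0.08), Cox7c (-0.14), Cox8a (-0.07) and Cox7b (0.10) did not pass the test. Cox7a2l stood at 55.5, 57 and 58.2 CPM in GFPneg, 47.4, 48.7 and 61.3 in GFPpos, 63.4, 66.9 and 62.3 in control and 66.6, 69.1 and 74.5 in rMSC. It was higher in rMSC than in GFPpos without overlap (0.42 ± 0.09, edgeR adjusted p = 0.00211), and the fresh groups overlapped.

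The paralogs of complex IV held low levels with a wide range between groups. Ndufa4l2 (chr10:127514967-127517154), whose induction at low oxygen is known, was listed at 0 counts in all GFPneg libraries. It stood at 12.7, 17.2 and 11.5 CPM in GFPpos, 28.4, 28.8 and 30.7 in control and 42, 40.9 and 43.3 in rMSC. Each group lay above the one before. It was at least 353-fold higher in GFPpos than in GFPneg, with the floor at 3 counts per library. Against GFPpos it rose in control (1.09 ± 0.15, edgeR adjusted p = 0.000179) and rMSC (1.61 ± 0.15, edgeR adjusted p = 1.23e-05). The step from control to rMSC (0.52 ± 0.15, edgeR adjusted p = 0.0158) was lost without control replicate 1 or 2 or rMSC replicate 3, with an adjusted p of up to 0.0566. Ndufa4 itself fell from 297, 312 and 325 CPM in GFPneg to 179.7, 166 and 198 in GFPpos, 118, 126 and 117 in control and 93.8, 104 and 109.8 in rMSC. Its last step (-0.23 ± 0.08, edgeR adjusted p = 0.0346) was lost without any 1 control library or rMSC replicate 1 or 2, with an adjusted p of up to 0.147. Of the pair, per exon length, Ndufa4l2 made up 0% in GFPneg, 4.9% ± 1.4 in GFPpos, and 14% ± 0.848 (control) and 21.6% ± 1.25 (rMSC) in the cultures (SD, n = 3). Its promoter had no entry in the RefSeq table used.

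Cox4i2, the other paralog known for low oxygen, had 323, 130 and 77 counts in GFPpos, 0, 6 and 0 in GFPneg, 0, 6 and 8 in control and 2, 0 and 2 in rMSC. In GFPpos this was 3.997, 2.37 and 1.36 CPM, a wide spread, yet every library was above those of the other groups. The ratio of GFPpos to GFPneg was 107 with a 95% counting interval of 48.7 to 291.8, to control 41.7 (24.6 to 76.8) and to rMSC 135 (52.5 to 498). Intervals cover counting error only. Cox4i2 passed the filter on low counts through GFPpos alone, so no test of it is given. Per length it was 0.705% ± 0.358 of the Cox4i pair in GFPpos.

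Cox6b2, a paralog known from testis, was higher in both fresh groups than in both cultures. It stood at 72.1, 71.3 and 79.6 CPM in GFPneg, 30, 27.4 and 30.4 in GFPpos, 0.879, 0.92 and 0.865 in control and 1.57, 0.641 and 0.903 in rMSC. GFPneg was above GFPpos (-1.34 ± 0.21, edgeR adjusted p = 0.00012), and GFPpos was 32.9 times control (-5.04 ± 0.25, edgeR adjusted p = 5.39e-08). The cultures overlapped at about 1 CPM. Its share of the Cox6b pair per length was 14.6% ± 0.544 in GFPneg and 9.35% ± 0.77 in GFPpos, against 0.511% ± 0.00814 in control and 0.481% ± 0.237 in rMSC. The erythroid sum was 7969 ± 233, 1818 ± 508, 35 ± 2.97 and 40.1 ± 1.9 CPM in the same order, and its part in the level of Cox6b2 was not tested.

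The other paralogs appeared or fell in the cultures. Cox7b2 (chr5:71442824-71548205), known from testis, had 0 counts in all 9 libraries of the other groups and 150, 120 and 174 counts in rMSC, or 2.45, 1.88 and 2.45 CPM. It was at least 53.0-fold higher than in control and at least 46.8-fold higher than in GFPpos, and made up 4.29% ± 0.531 of the Cox7b pair. It passed the filter on low counts through rMSC alone, so no test of it is given. Cox6a2, the heart and muscle form, stood at 0.186, 0.187 and 0.313 CPM in control and 2.29, 2.58 and 2.82 in rMSC (3.48 ± 0.68, edgeR adjusted p = 0.00271). Every rMSC library was above every other, and GFPpos had 2, 0 and 0 counts and GFPneg none. At 0.978% ± 0.0926 of the Cox6a pair in rMSC it remained a minor form. Cox7a1, also of heart and muscle, fell from 0.759, 0.647 and 0.985 CPM in control to 0.098, 0.219 and 0.0846 in rMSC (-2.56 ± 0.71, edgeR adjusted p = 0.0114). The call was lost without rMSC replicate 1 or 3, with an adjusted p of up to 0.0531.

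**Figure D4:**
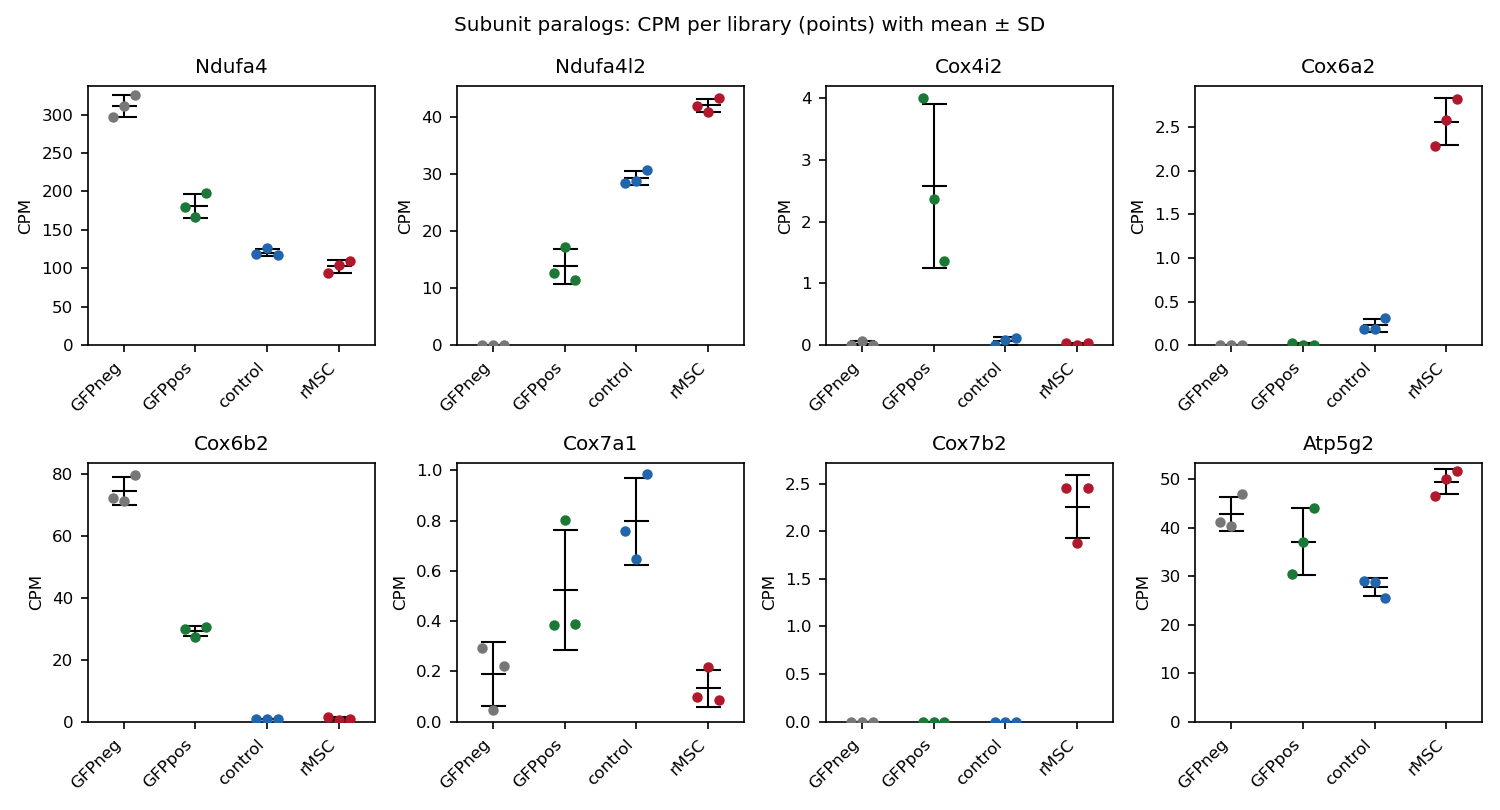
CPM of Ndufa4 and of 7 paralogs of complexes IV and V in each library (points), with mean ± SD of the 3 libraries of a group as black bars. Vertical axes start at 0 and differ between panels. Ndufa4l2 climbs from 0 in GFPneg to 42.1 ± 1.17 CPM in rMSC while Ndufa4 falls from 311 ± 14.3 to 102 ± 8.06 CPM.

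Complex V made up 40.3, 37.3, 36.7 and 36.8% of the members' sum in GFPneg, GFPpos, control and rMSC, respectively. Atp5b, the catalytic beta subunit, stood at 3961, 3951 and 3739 CPM in GFPneg, 2006, 1927 and 1568 in GFPpos, 1214, 1239 and 1208 in control and 1511, 1491 and 1486 in rMSC. It fell to 47.2% of GFPneg in GFPpos (-1.08 ± 0.10, edgeR adjusted p = 2.07e-06) and again in control (-0.59 ± 0.10, edgeR adjusted p = 0.00034). All rMSC libraries were above control and below GFPpos (0.29 ± 0.10, edgeR adjusted p = 0.0293 against control). That call was lost when any 1 control or rMSC library was left out, with an adjusted p of up to 0.081. The alpha subunit Atp5a1, which pairs with it, stood at 533, 551 and 552 CPM in control and 502, 484 and 506 in rMSC (-0.13 ± 0.08, edgeR adjusted p = 0.18), a difference that DESeq2 and a fit of these groups alone called lower.

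Atp5d, the delta subunit of the central stalk, rose from 142, 145 and 139 CPM in control to 214, 221 and 214 in rMSC, beside 219.9, 212 and 234 in GFPpos. The rMSC libraries were all above control (0.61 ± 0.06, edgeR adjusted p = 7.48e-06) and overlapped GFPpos. Atp5c1, the gamma subunit of the same stalk, stood at 227 ± 1.85 and 244 ± 2.96 CPM (0.11 ± 0.05, edgeR adjusted p = 0.107). In the peripheral stalk and membrane part, Atp5f1 fell from 196 ± 4.35 to 162 ± 5.07 CPM (-0.27 ± 0.07, edgeR adjusted p = 0.00647) and Atp5h from 138 ± 5.6 to 122 ± 6.32 CPM (-0.18 ± 0.06, edgeR adjusted p = 0.0388). The Atp5h call was lost without GFPneg replicate 2, any 1 control library or rMSC replicate 1 or 2, with an adjusted p of up to 0.157. Atp5k, a subunit at the dimer contact, had the largest fall of complex V in control against GFPpos (-1.23 ± 0.12, edgeR adjusted p = 5.45e-06). Atp5o, Atp5l, Atp5f1 and Uqcrc2 share over 20% of their exon bases with other annotated genes, so their counts are less certain.

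Of the 3 genes for the c subunit of the rotor ring, whose mature proteins are identical, Atp5g2 was the one called between the cultures. It stood at 41.1, 40.5 and 46.9 CPM in GFPneg, 30.4, 37 and 44.1 in GFPpos, 29.1, 28.7 and 25.6 in control and 46.7, 50.2 and 51.8 in rMSC. The rMSC libraries were above all of GFPpos and control but overlapped GFPneg, which also overlapped GFPpos. Atp5g2 rose by 0.83 ± 0.13, edgeR adjusted p = 0.000262 against control. Atp5g1 stood at 105 ± 1.76 and 102 ± 3.77 CPM in control and rMSC (-0.04 ± 0.07, edgeR adjusted p = 0.636), and Atp5g3 at 209 ± 0.639 and 188 ± 4.45 CPM (-0.15 ± 0.06, edgeR adjusted p = 0.0519), which passed in 7 other settings. The share of Atp5g2 in the CPM of the 3 genes was 3.80% ± 0.272, 5.93% ± 1.06, 8.15% ± 0.553 and 14.6% ± 0.335 in GFPneg, GFPpos, control and rMSC, respectively. Of the 150-base windows of Atp5g2, 33.1% occur in the copies Gm10175 and Gm10231, so some of its reads may have been lost.

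Atp5s and Atp5sl, also named for ATP synthase, had another order of groups than most members. Atp5s, a coupling factor B homologue, stood at 18.2, 19.1 and 18.1 CPM in GFPneg, 11.8, 12 and 12.6 in GFPpos, 14.9, 14.7 and 14.1 in control and 15.2, 16.2 and 17.3 in rMSC. GFPpos was the lowest group and did not overlap the others (0.26 ± 0.09, edgeR adjusted p = 0.0239 for control against GFPpos). That call was lost in an edgeR fit of these groups alone (adjusted p = 0.136), without control replicate 1 or 2, and without replicate 1 of both fresh groups. Atp5sl, whose product is now named Dmac2 and linked to complex I assembly, was higher in GFPpos (15.1 ± 0.31 CPM) than in GFPneg (11.4 ± 1.29; 0.41 ± 0.12, edgeR adjusted p = 0.00769, not called with library totals alone) and control (8.15 ± 0.326; -0.89 ± 0.12, edgeR adjusted p = 5.35e-05).

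Genes that serve the chain were counted in the same fit from lists chosen with earlier results of these data known. In GFPpos against GFPneg, where 36.5% of all genes were lower and 40.5% higher, 27 of 36 tested assembly factors outside the member rule were lower and 4 higher, as were 15 and 0 of 18 electron carriers and quinone enzymes, 18 and 0 of 18 citric acid cycle genes, 10 and 1 of 15 biogenesis regulators and 25 and 0 of 25 import genes. In control against GFPpos, where 35.9% of all genes were lower and 32.5% higher, the same lists had 18 lower and 7 higher, 12 and 0, 11 and 2, 6 and 3, and 18 and 0. In rMSC against control, with 25.5% of all genes lower and 24.5% higher, they had 8 lower and 10 higher, 5 and 6, 3 and 6, 5 and 0, and 11 and 8. Against GFPpos, with 38.2% of all genes lower and 33.4% higher, rMSC had 17 lower and 8 higher, 12 and 3, 10 and 2, 7 and 3, and 17 and 3. In list order, the median log2 fold change was -0.71, -0.92, -0.94, -0.96 and -1.04 in GFPpos against GFPneg and -0.30, -0.61, -0.49, -0.13 and -0.66 in control against GFPpos, where all genes were at 0.08 and -0.04. It was -0.05, -0.07, 0.08, -0.06 and -0.19 in rMSC against control and -0.26, -0.64, -0.36, -0.33 and -0.69 against GFPpos, where all genes were at -0.01 and -0.08.

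Among assembly factors, Surf1, needed for complex IV, rose in rMSC from 27.5 ± 0.797 to 50.9 ± 1.81 CPM (0.89 ± 0.06, edgeR adjusted p = 1.35e-06), and Tmem186, of the complex I assembly group, fell from 20.8 ± 1.58 to 10 ± 0.0941 CPM (-1.06 ± 0.13, edgeR adjusted p = 6.29e-05). Of the regulators, Pprc1, a coactivator of NRF1, fell from 173 ± 4.59 CPM in GFPneg to 60 ± 8.1 in GFPpos (-1.53 ± 0.09, edgeR adjusted p = 7.53e-08) and was lower in rMSC (34.6 ± 1.37) than in control (68.6 ± 3.49; -0.99 ± 0.09, edgeR adjusted p = 7.38e-06). Gabpa, the ETS factor of such promoters, fell from 84.4 ± 1.42 CPM in control to 64.3 ± 1.87 in rMSC (-0.39 ± 0.06, edgeR adjusted p = 0.000492). The import chaperone Hspa9 rose from 344 ± 18.1 to 785 ± 15.5 CPM in the same comparison (1.19 ± 0.14, edgeR adjusted p = 5.61e-05).

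Of 7 ATP export and uncoupling genes tested, 1 was higher and 5 lower in GFPpos against GFPneg, 2 higher and 3 lower in control against GFPpos, 2 and 2 in rMSC against control and 3 and 3 in rMSC against GFPpos. Among all genes the shares higher and lower were 40.5 and 36.5%, 32.5 and 35.9%, 24.5 and 25.5%, and 33.4 and 38.2% in that order. The ADP/ATP carrier Slc25a5 stood at 739 ± 91.6 CPM in GFPpos, 231 ± 9.98 in control and 125 ± 3.56 in rMSC (-0.88 ± 0.10, edgeR adjusted p = 3.06e-05 for the last step). Its paralog Slc25a4, the heart and muscle form, rose from 85.6 ± 4.1 CPM in GFPneg to 291 ± 55.9 in GFPpos, 448 ± 11.2 in control and 667 ± 15.3 in rMSC (0.57 ± 0.12, edgeR adjusted p = 0.00187 for the last step). Ucp2, an inner membrane carrier abundant in blood cells, stood at 1631 ± 67.6 CPM in GFPneg, 466 ± 136 in GFPpos and 1.8 ± 0.268 in control (-8.01 ± 0.45, edgeR adjusted p = 1.08e-07).

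Genes of the low-oxygen response, both regulators and targets, were set beside Ndufa4l2 and Cox4i2. Of 10 tested, 6 were higher and 4 lower in GFPpos against GFPneg, 5 and 2 in control against GFPpos, 2 and 8 in rMSC against control and 2 and 5 in rMSC against GFPpos. The shares of all genes called higher and lower were 40.5 and 36.5%, 32.5 and 35.9%, 24.5 and 25.5%, and 33.4 and 38.2% in that order. Hif1a stood at 117 ± 19.3 CPM in GFPpos, 906 ± 30.8 in control and 203 ± 2.82 in rMSC (-2.16 ± 0.11, edgeR adjusted p = 8.83e-08 for rMSC against control). Epas1, the second HIF alpha subunit, stood at 1.15 ± 1.95 CPM in GFPneg and 567 ± 233 in GFPpos, and went from 14.3 ± 1.11 in control to 83.3 ± 4.83 in rMSC (2.54 ± 0.86, edgeR adjusted p = 0.0307). The HIF targets Egln3 and Pdk1 fell in rMSC against control (-2.74 ± 0.36, edgeR adjusted p = 9.42e-05 and -1.04 ± 0.14, edgeR adjusted p = 0.000152), where Ndufa4l2 was 0.52 ± 0.15.

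**Figure D5:**
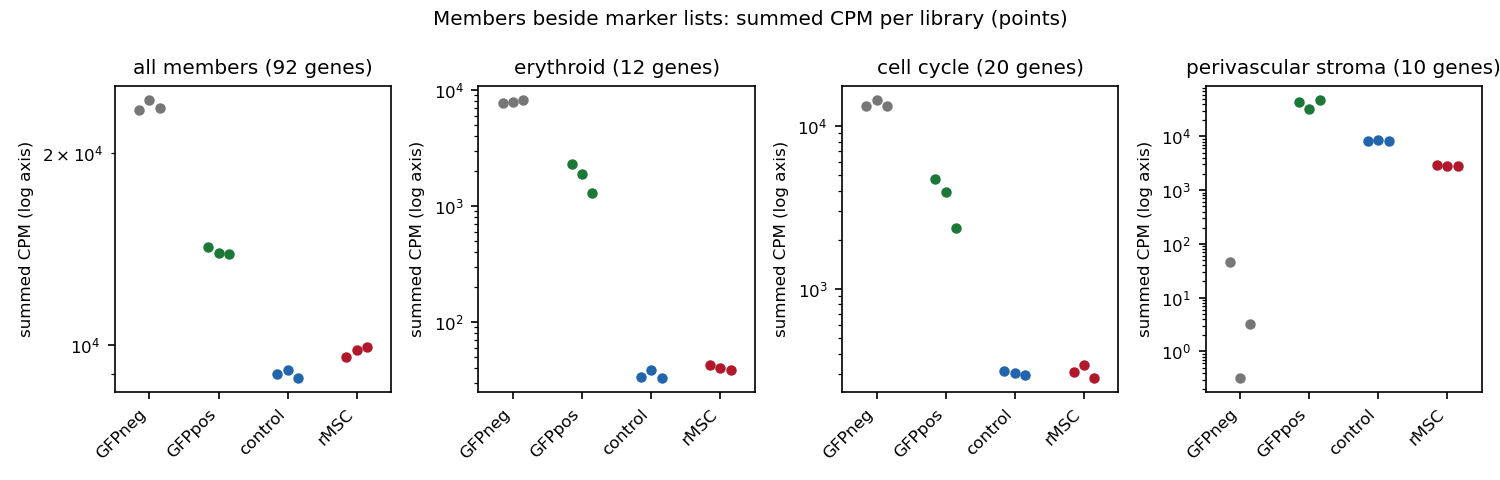
Summed CPM of the 92 members, 12 erythroid markers, 20 cell cycle genes and 10 perivascular stromal markers in each library, on log axes that differ between panels. The members and the erythroid and cell cycle sums are highest in GFPneg, where the perivascular sum is 0.322 to 46.2 CPM.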

How the data were processed

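RNA of 12 mouse libraries was measured, 3 in each of 4 groups. The authors deposited whole-number read counts per gene; alignment with STAR 2.4.1c and counting with featureCounts 1.4.6 on mm10 are named in the submitters' processing notes, without roles, and the strand setting is not given in the sources used here, so reads of a gene and of an overlapping or antisense gene cannot be told apart. Counts of the libraries as used summed to 60396342 to 85186405. The 27 symbols turned into dates (0.183 to 0.369% of counts) were left out.

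Groups were taken from the labels. Genes were filtered with filterByExpr, leaving 15163, scaled by TMM and tested with edgeR 4.0.16's quasi-likelihood test (R 4.3.3, limma 3.58.1) on 4 groups without covariates, with Benjamini-Hochberg adjustment over all genes and calls under 0.05. CPM used the same factors. The 4 comparisons share libraries. Exon lengths are merged exons of coding transcripts in GENCODE M21. Counting intervals are exact at 95%, and folds against a group at 0 used a floor of 3 counts per library; both cover counting error only. Members and lists were chosen with earlier results of these data known. Named by rule were, in each comparison, up to 2 called members with the highest and 2 with the lowest fold change of each class, the paralogs, Cox7a2l and the Sdh genes, likewise 2 and 2 of each pathway list, and the 3 genes most alike in profile. The other members described were singled out after their values were seen. Values of 1 member are not reported here. The test was also run on simulated counts in which few genes differed between the groups compared. In these data 50.1 to 77.0% of genes were called, so that run does not check the scaling here. Alternatives were RLE factors, library totals, other filters, only the groups compared, DESeq2 1.42.0, a replicate block and leaving out each library. The lowest chi-square per degree of freedom between libraries of a group was 8.17, so no library was a copy of another. The labels do not say whether replicate numbers pair libraries. Same-numbered deviations correlated at -0.0249 to 0.16, with the highest values for GFPpos replicates 1 and 2 with GFPneg (0.16 and 0.151).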

Additional observations from a re-analysis of the deposited data

How the results depend on the processing

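Without composition factors, 2 members were called higher in GFPpos against GFPneg, where 11883 of all genes were called in either direction. In control against GFPpos, 3 were called higher in a fit of these groups alone and 3 without replicate 1 of both fresh groups. All genes called were 9312 and 10572 there. Leaving out 1 library at a time gave 5 to 6 higher and 66 to 78 lower for GFPpos against GFPneg, 3 (without control replicate 2) to 7 (without GFPpos replicate 3) and 72 to 78 for control against GFPpos, 19 to 33 and 11 to 19 for rMSC against control and 10 to 13 and 62 to 67 for rMSC against GFPpos. All genes called were then 11140 to 11886, 9498 to 10904, 6456 to 8653 and 10104 to 11276 in that order. In the main fit they were 11675, 10362, 7592 and 10859. A fit of the compared groups alone gave 40 higher and 22 lower for rMSC against control and 6 and 55 for GFPpos against GFPneg. All genes called were 10192 and 9990 in these fits. The log2 fold change turned sign in members near 0. In GFPpos against GFPneg these were Atp5g2 (0.02271, these groups alone), Cox7a2l (0.01097 with RLE factors, 0.1097 for these groups alone, 0.0106 with DESeq2) and Ndufb11 (-0.007322, library totals). Sdha turned in control against GFPpos (0.1042 with library totals, 0.01006 without replicate 1 of both fresh groups; -0.1443 to 0.01728 leaving out 1 library) and in rMSC against GFPpos (0.1086, 0.03146; -0.1227 to 0.03892). In rMSC against control, leaving out 1 library gave -0.1966 to 0.4667 for Cox6b2 and -0.01283 to 0.04962 for Sdha. The cause was not tested. The median of all genes in GFPpos against GFPneg was 0.0758, 0.202 with RLE factors and -0.0806 with library totals, and the members' median lay -0.665, -0.664 and -0.775 from it. With the replicate block, whose numbers are not stated to pair the libraries, members higher and lower were 6 and 71, 5 and 78, 29 and 16, and 11 and 65 in the order above. All genes called were 11397, 10033, 7330 and 10552 with it. Every library correlated best with its own number in rMSC against control alone, but at 0.0139, 0.0152 and 0.0209, too low to show a pairing. GFPpos replicates 1 and 2 also did so with GFPneg, at higher correlations (0.16 and 0.151), and replicate 3 did not. The block lost the calls of Cox7a1 and Sdhc in rMSC against GFPpos and gained Cox7a2 in rMSC against control.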
